A study of Mus musculus with 24 samples.

Results

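Bone marrow taken 6 h after benzo[a]pyrene (BP) was compared with bone marrow taken 12 h after 7,12-dimethylbenz[a]anthracene (DMBA). The comparison rests on 5 of the 24 arrays of the study, namely the 2 arrays labelled as wild type, BP and 6 hours, and the 3 arrays labelled as wild type, DMBA and 12 hours. The arrays of oil-treated mice did not enter it. All mice were female C57BL/6J animals of wild-type genotype, 6 weeks old, and received 50 mg/kg of the compound by injection into the peritoneum. Each array held total RNA of 1 sample labelled with Cy3 (green) beside a reference labelled with Cy5 (red), which the labels describe as pooled marrow of oil-treated wild-type mice, and dyes were not swapped. Each sample is described as a pool of 9. The labels do not state what the 9 were or whether the replicates of a group were separate pools. Nor do they state whether such pools were raised or treated separately. The spread between arrays of a group may therefore not be one between separate pools. The study also held wild-type mice given TCDD, mice without Cyp1b1, Cyp1a1 or both genes, and oil controls. Compound and time differ together here, and no slide held arrays of both groups, so compound, time and slide cannot be told apart.

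BP and DMBA are polycyclic aromatic hydrocarbons, both of which bind the aryl hydrocarbon receptor (AhR). The bound receptor enters the nucleus, pairs with ARNT and raises transcription of a battery of genes led by Cyp1a1, whose enzymes oxidise the hydrocarbons, in part to intermediates that react with DNA. Damaged DNA stabilises p53, which raises genes of cell cycle arrest and apoptosis. Marrow holds the dividing precursors of blood together with monocytes, macrophages and neutrophils, which answer inflammatory signals through the transcription factor NF-kB.

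Values are log2 ratios of corrected Cy3 to Cy5 signals, so 0 is the level of the reference pool and 1 a doubled corrected signal. The correction adds an offset of 50 to both channels, which draws the ratios of dim spots toward 0. Differences and fold values of dim genes can therefore be too small. Cy3 was well above background for 63.7% and 67.8% of probes on the BP arrays and for 67.2%, 72.9% and 78.1% on the DMBA arrays. Log ratios correlated across genes at r = 0.77 between the BP arrays, which share a slide. Among the DMBA arrays r was 0.87 for replicates 1 and 2, which share a slide, and 0.42 and 0.33 for replicate 3 with each of them. Between BP and DMBA arrays r lay between 0.41 and 0.51. The red channel of each of the 5 arrays correlated at 0.989 to 0.995 with the mean of the other 4. WT oil replicate 1 stood apart from all of them, since its red channel correlated with theirs at only 0.748, against 0.962 and 0.991 for WT oil replicates 2 and 3. Its log ratios are therefore given separately wherever oil values are shown.

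Of 20637 genes tested, 263 (1.27%) differed between BP at 6 h and DMBA at 12 h (limma, adjusted p under 0.05). Of these, 90 (0.436%) were higher after BP and 173 (0.838%) were lower. The rises were larger, with a median log2 difference of 0.91 and a maximum of 3.42, while the falls had a median of -0.68. In every one of the 263 genes both BP arrays lay beyond all 3 DMBA arrays, which was also so for 16.9% of all genes tested on the higher side and for 22.3% on the lower side. Calls were 34.2% rises as reported, 62.5% without background subtraction, 69.2% with the scanner software's processed signals and 76.9% with Cy3 alone. The share was 35.3% with Aquantile scaling and 54.4% with only the 5 arrays fitted, and from 39.7% to 85.7% when each replicate was left out, so the excess of falls depended on the setting. With slide as a random block (consensus correlation 0.559) 4 genes (0.0194%) were called, all higher after BP, namely Tnf, Ccrl2, Egr2 and Nfkbiz. In bulk marrow, fewer cells of a type and less RNA per cell cannot be told apart.

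**Figure D1:**
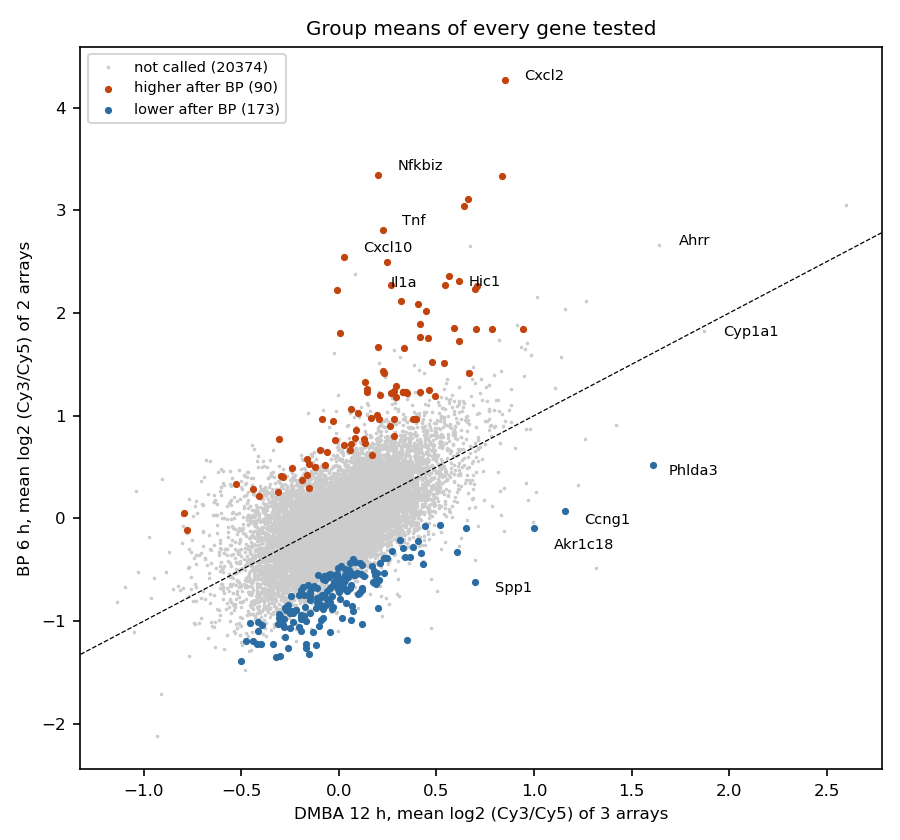
Mean log2 (Cy3/Cy5) of the 2 BP arrays (vertical axis) against that of the 3 DMBA arrays (horizontal axis), 1 point per gene, with the line of equal means dashed. The 90 genes higher after BP reach a BP mean of 4.27 (Cxcl2), and Phlda3, Ccng1, Akr1c18 and Spp1 stand out below the line by their DMBA means.

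Inflammatory chemokine and cytokine genes led the rises. Of the 26 members tested, 10 were higher after BP and none was lower (0.436% and 0.838% of all genes). The list's median log2 difference was 0.63, against -0.01 over all genes tested. With slide as a block 1 of the 10 was called, and leaving out BP replicate 1 also left 1 call in the list. Cxcl2, a chemokine that draws neutrophils, had log2 ratios of 4.31 and 4.23 after BP, against 0.56, 0.76 and 1.24 after DMBA. Its difference of 3.42 ± 0.43 (SE, limma adjusted p = 0.00815) was the largest of all rises. Both BP arrays stood far above the 3 DMBA arrays. Tnf, the cytokine TNF, had log2 ratios of 2.90 and 2.71 after BP and of 0.15, 0.17 and 0.35 after DMBA. The Tnf difference was 2.58 ± 0.21 (limma adjusted p = 0.000465), and with slide as a block its adjusted p was 0.0439. The Tnf mean after BP exceeded that after DMBA 5.98-fold, and the groups of arrays did not overlap.

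Cxcl10, a chemokine for T cells that interferons induce, read 3.26 and 1.84 after BP, against -0.27, -0.05 and 0.39 after DMBA. Its difference was 2.52 ± 0.35 (limma adjusted p = 0.00883). The BP arrays were unequal, yet the lower of them was well above every DMBA array. Ptgs2, the inducible cyclooxygenase of prostaglandin synthesis, read 3.52 and 3.14 after BP, against 0.52, 0.66 and 1.32 after DMBA, a difference of 2.50 ± 0.32 (limma adjusted p = 0.0086). Il6 and Il1a, genes of fever-inducing cytokines, rose too. The Il6 difference was 1.80 ± 0.25 and the Il1a difference 1.73 ± 0.22 (limma adjusted p = 0.00883 and 0.00815). The other called members were the chemokine genes Ccl3 (1.69 ± 0.31), Ccl4 (1.53 ± 0.30) and Cxcl3 (1.55 ± 0.33) and the macrophage growth factor gene Csf1 (0.57 ± 0.12), which the naming rule left out and which were picked out after their values were seen. Il1b read 2.96 and 2.34 after BP and 0.44, 0.45 and 1.13 after DMBA, and its difference of 1.98 ± 0.58 did not pass the test (limma adjusted p = 0.118). Ccrl2, which encodes a receptor on the surface of activated leukocytes and belongs to none of the lists, had log2 ratios of 2.76 and 2.23 after BP and of 0.07, 0.19 and 0.48 after DMBA. Its difference was 2.25 ± 0.20 (limma adjusted p = 0.000609). The groups of arrays were well apart for Ccrl2.

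Genes of the NF-kB feedback loop were called too. Of 20 members tested, 4 were higher after BP and none was lower (0.436% and 0.838% of all genes). The list's median was 0.13, so most members differed little. Nfkbiz alone was called with slide as a block. Nfkbiz, which encodes a nuclear IkB protein that modifies NF-kB target choice, read 3.50 and 3.18 after BP, against 0.03, 0.07 and 0.50 after DMBA. Its difference was 3.14 ± 0.32 (limma adjusted p = 0.0017), 8.81-fold. The DMBA arrays of Nfkbiz lay near the reference pool and the BP arrays did not. Tnfaip3, the ubiquitin-editing inhibitor A20, had log2 ratios of 2.39 and 2.05 after BP and of -0.20, -0.22 and 0.39 after DMBA (2.23 ± 0.36, limma adjusted p = 0.0168). Nfkbia, which encodes the inhibitor IkB alpha, and Ier3, an early response gene that protects from cell death, were higher by 1.35 ± 0.19 and 1.48 ± 0.21 (limma adjusted p = 0.00883 and 0.0121). All 4 had no overlap between the BP and the DMBA arrays.

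Promoter sequences of these genes are shown because 14 called members of the chemokine and NF-kB lists moved together. RefSeq windows on GRCm38.p6 were found for 12 of the 14, and 8 of the 12 held, within the 250 bases before the start of transcription, letters that match the NF-kB consensus (kappa B site) on either strand. Among all genes tested that have a window, 679 of 12824 (5.29%) held such letters, as did 14 of 61 called higher after BP (23%) and 11 of 128 called lower (8.59%). The 8 genes are among these 14. Of the immediate early genes called higher, 1 of 7 with a window held such letters (14.3%). The NF-kB list was chosen as feedback genes and targets of NF-kB, so such letters in its members are no separate evidence. A pair of matches on opposite strands that overlap is printed as 1 stretch. The windows of Cxcl2, Cxcl10, Nfkbia and Il6 are given 5′ to 3′, with the matches in capitals.
Cxcl2, chr5:90903649-90903898, plus strand: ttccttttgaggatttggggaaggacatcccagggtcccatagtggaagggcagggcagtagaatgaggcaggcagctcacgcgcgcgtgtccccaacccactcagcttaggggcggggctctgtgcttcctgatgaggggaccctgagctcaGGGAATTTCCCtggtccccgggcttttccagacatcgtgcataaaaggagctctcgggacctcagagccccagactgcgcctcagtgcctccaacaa
Cxcl10, chr5:92348890-92349139, minus strand: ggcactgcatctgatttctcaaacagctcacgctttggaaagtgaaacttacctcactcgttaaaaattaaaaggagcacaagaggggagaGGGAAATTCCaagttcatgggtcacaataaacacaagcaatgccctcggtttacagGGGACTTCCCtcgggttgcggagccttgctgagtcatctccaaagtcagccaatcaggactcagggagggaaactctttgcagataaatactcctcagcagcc
Nfkbia, chr12:55492648-55492897, minus strand: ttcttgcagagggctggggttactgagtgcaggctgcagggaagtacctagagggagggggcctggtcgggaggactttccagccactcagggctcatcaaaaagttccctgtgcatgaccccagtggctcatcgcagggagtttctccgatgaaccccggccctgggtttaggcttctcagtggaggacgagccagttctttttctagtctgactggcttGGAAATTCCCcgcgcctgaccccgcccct
Il6, chr5:30012864-30013113, plus strand: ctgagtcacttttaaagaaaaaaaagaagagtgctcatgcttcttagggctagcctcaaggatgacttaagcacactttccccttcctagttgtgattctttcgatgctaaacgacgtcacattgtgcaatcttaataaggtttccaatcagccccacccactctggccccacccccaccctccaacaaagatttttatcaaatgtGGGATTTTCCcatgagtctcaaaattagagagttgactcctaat
The match begins 97 bases before the start in Cxcl2, 29 bases before it in Nfkbia and 44 bases before it in Il6, and Cxcl10 holds a pair of matches. Tnf, Ccl3, Il1a and Ptgs2 had no match in this window, which says only that these letters are not there. The letters TGANTCA, bound by AP-1, were in the windows of Cxcl10, Il6, Il1a and Tnfaip3, and in those of 801 of the 12824 genes (6.25%). GCGTG, the core that AhR and ARNT bind, was in 34 of the 61 windowed genes higher after BP (55.7%), in 62 of the 128 lower after BP (48.4%) and in 5613 of all 12824 (43.8%). These matches are descriptions of sequence and were not tested.

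Immediate early genes, which cells transcribe within minutes of a stimulus without new protein synthesis, were also among the rises. Of the 28 tested, 9 rose and none fell (0.436% and 0.838% of all genes), and the median difference was 0.66. The list held 1 call with slide as a block (Egr2), and 1 without either BP replicate or without DMBA replicate 1 or 2. Egr2, a zinc finger transcription factor, read 3.34 and 2.88 after BP, against 0.52, 0.43 and 1.04 after DMBA. Its difference was 2.45 ± 0.23 (limma adjusted p = 0.00109). The lower BP array of Egr2 was above the highest DMBA array by more than the range within either group. Its relative Egr1 had log2 ratios of 3.19 and 2.90 after BP and of 0.45, 0.39 and 1.09 after DMBA (2.40 ± 0.46, limma adjusted p = 0.0331). Dusp1, a phosphatase that switches off MAP kinases, rose by 2.01 ± 0.34 (adjusted p = 0.0218), Nr4a1, a nuclear receptor, by 1.47 ± 0.27 (adjusted p = 0.0276) and Atf3, a stress-induced transcription factor, by 1.00 ± 0.16 (adjusted p = 0.0168). Ier2 rose by 0.87 ± 0.16 (limma adjusted p = 0.0276), and Maff, Junb and Jun, subunits of AP-1 and related dimers named after their values were seen, by 1.30 ± 0.25, 1.19 ± 0.24 and 0.93 ± 0.20. Fos, the partner of Jun in AP-1, read 1.98 and 2.34 after BP and 0.71, 0.49 and 1.85 after DMBA, and did not pass the test (1.14 ± 0.39, limma adjusted p = 0.182). DMBA replicate 3 was the highest of the DMBA arrays for Fos, Egr2 and Egr1.

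**Figure D2:**
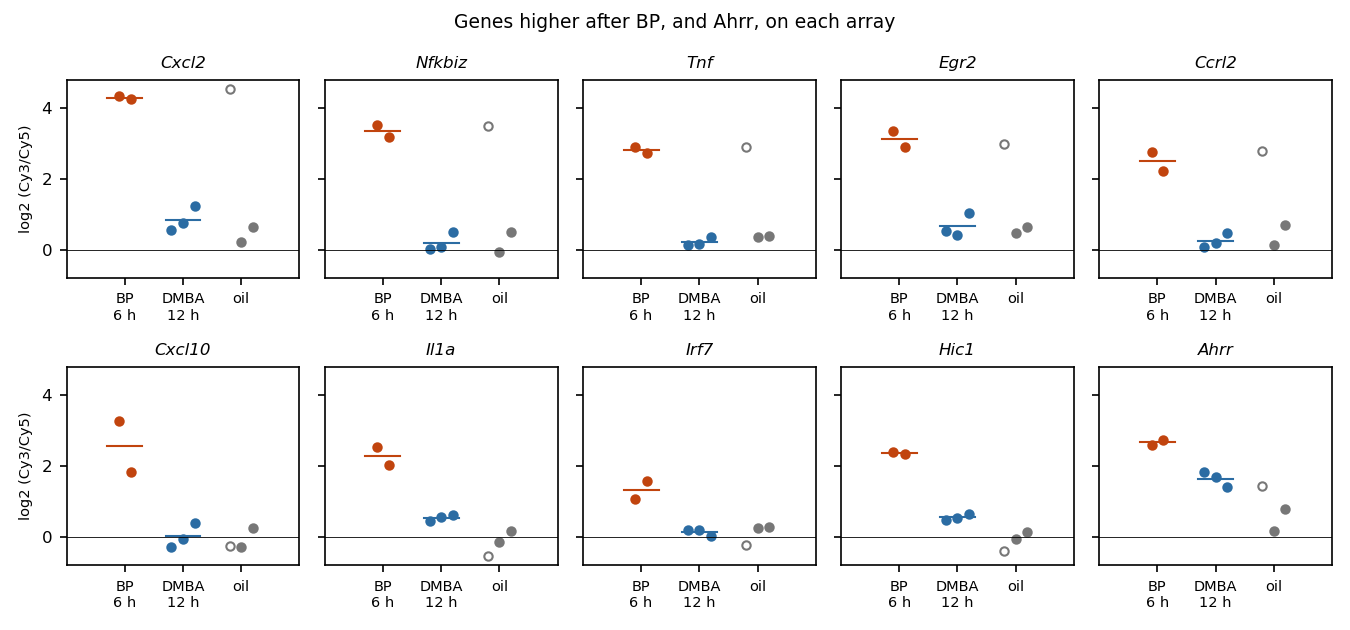
Log2 (Cy3/Cy5) of 9 genes higher after BP and of Ahrr on each array, with BP at 6 h (orange, 2 arrays), DMBA at 12 h (blue, 3 arrays) and wild-type oil arrays (grey), lines at the means of BP and DMBA, and WT oil replicate 1 as an open circle. The open circle lies near the BP arrays for Cxcl2, Nfkbiz, Tnf, Egr2 and Ccrl2 and below 0 for Cxcl10, Il1a, Irf7 and Hic1.

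Oil-treated marrow gives the background of these genes. Cxcl2 read 0.23 and 0.64 on WT oil replicates 2 and 3, Tnf 0.35 and 0.39, Nfkbiz -0.06 and 0.49 and Egr2 0.47 and 0.65, all close to the DMBA arrays. WT oil replicate 2 shares a slide with DMBA replicates 1 and 2, and no oil array shares one with the BP arrays. On WT oil replicate 1, whose red channel differed, Cxcl2 read 4.52, Tnf 2.90, Nfkbiz 3.49, Egr2 2.98 and Ccrl2 2.77, as high as on the BP arrays. Over the 90 genes higher after BP, WT oil replicate 1 was at or above the lower BP array in 48, WT oil replicate 3 in 3 and WT oil replicate 2 in 1. Among the 20374 genes not called, WT oil replicates 1, 2 and 3 were at or above it in 12276, 13419 and 10838. By group, the count of called genes for WT oil replicate 1 was 5 of the 10 chemokine and cytokine genes, 6 of the 9 immediate early genes, all 4 NF-kB genes and 0 of the 3 interferon-stimulated genes. The part of WT oil replicate 1's red channel in this count was not tested. Cd14, a surface marker of monocytes, read 1.72 and 2.04 after BP and 0.92, 0.84 and 0.97 after DMBA, and its difference did not pass the test (0.97 ± 0.41, limma adjusted p = 0.304). The other marker Adgre1, the macrophage antigen F4/80, read 0.43 and 0.52 after BP and 0.48, 0.40 and 0.51 after DMBA, with an interval of the difference from -0.25 to 0.27. The 40 monocyte and macrophage genes tested had a median difference of -0.06, and Nr4a1 was their only called member.

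Of the 41 interferon-stimulated genes tested, 3 were called higher and none lower (0.436% and 0.838% of all genes). Their median difference was 0.44, and in 24 both BP arrays lay above all 3 DMBA arrays (16.9% of all genes). None was called with slide as a block, with only the 5 arrays, or without DMBA replicate 1 or 2, and the median was 0.27 without BP replicate 1. Oasl2, of the oligoadenylate synthetase family that senses viral RNA, had log2 ratios of 2.26 and 1.34 after BP, against -0.06, 0.12 and -0.04 after DMBA (1.80 ± 0.31, limma adjusted p = 0.0229). Ifit1, which blocks translation of viral RNA, read 2.03 and 1.29 after BP and 0.14, 0.31 and 0.54 after DMBA (1.33 ± 0.23, limma adjusted p = 0.0229). Irf7, the master transcription factor of interferon genes, read 1.07 and 1.59 after BP and 0.19, 0.19 and 0.02 after DMBA (1.19 ± 0.18, limma adjusted p = 0.0158). None of the 3 genes had overlapping groups, although the BP arrays of each were unequal. Oasl1 missed the threshold at 1.00 ± 0.22 (limma adjusted p = 0.0507). The list had a median of 0.43 and 0.29 on the BP arrays, of 0.03, 0.01 and 0.10 on the DMBA arrays and of -0.36, 0.08 and 0.06 on WT oil replicates 1, 2 and 3.

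Hic1 (hypermethylated in cancer 1), a transcriptional repressor, was also higher after BP. It read 2.39 and 2.33 after BP, against 0.49, 0.54 and 0.65 after DMBA, and -0.40, -0.05 and 0.15 on WT oil replicates 1, 2 and 3. The difference between BP and DMBA was 1.80 ± 0.25 (limma adjusted p = 0.00883). BP arrays lay above DMBA arrays and these above the WT oil arrays, as they did for Il1a, which read -0.53, -0.15 and 0.18 on WT oil replicates 1, 2 and 3. Hic1 also read 1.70, 1.75 and 2.15 on the Cyp1a1-null arrays taken 12 h after BP, against 1.29, 0.66 and -0.08 on the Cyp1a1-null oil arrays. It read 2.04 and 1.74 on the double-null arrays taken 12 h after BP, against -0.04 on the double-null oil array. On the Cyp1b1-null arrays taken 12 h after DMBA it read 0.09 and 0.05, against -0.16 and -0.25 on the Cyp1b1-null oil arrays. Genotype, time and slide differ between these groups, and they were not tested against each other here.

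Of the AhR battery, Cyp1a1 was well above the oil arrays after both treatments. Cyp1a1, the enzyme most used as a readout of AhR activity, read 1.71 and 1.94 after BP, against 1.93, 1.76 and 1.91 after DMBA, and 0.03, -0.11 and 0.48 on WT oil replicates 1, 2 and 3. The 2 treatments overlapped, and the difference was -0.04 ± 0.32 (limma adjusted p = 0.98), with a 95% interval from -0.73 to 0.64. Cyp1b1, the CYP1 enzyme of marrow stroma, read 0.53 and 0.61 after BP and 0.37, 0.46 and 0.48 after DMBA, a difference of 0.13 ± 0.18 (limma adjusted p = 0.867) with an interval from -0.26 to 0.52. These intervals allow a difference of Cyp1a1 in either direction. Tiparp, an AhR-induced ADP-ribosyltransferase that represses the receptor, was the only one of 13 members called, and read 2.01 and 1.69 after BP, against 0.65, 0.61 and 0.85 after DMBA (1.14 ± 0.17, limma adjusted p = 0.0158). On WT oil replicates 1, 2 and 3 Tiparp read 2.19, 0.14 and 0.50.

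Ahrr, the AhR repressor, read 2.60 and 2.72 after BP and 1.84, 1.68 and 1.41 after DMBA, with 1.43, 0.16 and 0.78 on WT oil replicates 1, 2 and 3. Its difference of 1.02 ± 0.32 did not pass the test (limma adjusted p = 0.15, interval 0.32 to 1.72), although the BP arrays lay above all DMBA arrays. Nqo1, a quinone reductase under AhR and NRF2, read 0.93 and 0.62 after BP and 0.06, 0.01 and 0.50 after DMBA, a difference of 0.58 ± 0.17 (limma adjusted p = 0.112). Serpinb2, an inhibitor of plasminogen activators, read 1.42 and 1.45 after BP and 0.71, 0.54 and 0.71 after DMBA, a difference of 0.78 ± 0.23 (limma adjusted p = 0.116). In 8 of the 13 battery genes both BP arrays lay above all DMBA arrays (16.9% of all genes), and the list's median difference was 0.13. Among NRF2 targets, Fth1, the ferritin heavy chain gene, was the only member called, and it is left without a change because its spot was saturated on a DMBA array.

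Of the 38 p53 targets tested, 4 were lower after BP than after DMBA and 1 was higher (0.838% and 0.436% of all genes). The median difference was -0.09 (0.06 with Cy3 alone). None was called with slide as a block. Phlda3, which restrains AKT signalling, read 0.35 and 0.69 after BP, against 1.62, 1.64 and 1.57 after DMBA, and -0.12, 0.66 and 0.19 on WT oil replicates 1, 2 and 3. It fell by 1.09 on the log2 scale (SE 0.20, limma adjusted p = 0.0276), and the DMBA arrays lay close together. Ccng1, the gene of cyclin G1, read 0.14 and 0.00 after BP, against 1.07, 0.96 and 1.45 after DMBA (-1.09 ± 0.18, limma adjusted p = 0.0168), and 0.05, 0.12 and 0.56 on the oil arrays. For both genes the BP arrays lay within or beside the range of the oil arrays and the DMBA arrays lay above it. Rrm2b, a ribonucleotide reductase subunit for DNA repair, read -0.41 and -0.65 after BP and 0.13, 0.27 and 0.19 after DMBA (-0.73 ± 0.13, limma adjusted p = 0.0276). Bax, which opens the mitochondrial membrane in apoptosis and was named after its value was seen, read -0.44 and -0.11 after BP and 0.41, 0.40 and 0.33 after DMBA (-0.65 ± 0.14, limma adjusted p = 0.0451).

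Ptpn14, a tyrosine phosphatase, was the member called higher after BP (0.79 ± 0.17, limma adjusted p = 0.044), and 1 of its 3 probes tested gave -0.01. Cdkn1a, the gene of the cell cycle inhibitor p21, read 0.94 and 1.20 after BP and 0.71, 0.56 and 1.03 after DMBA, and the groups overlapped (0.30 ± 0.21, limma adjusted p = 0.623, interval -0.15 to 0.76). Mdm2, which marks p53 for destruction, also had overlapping groups, with an interval of the difference from -0.45 to 0.12. Phlda3 read 1.17, 1.67 and 1.11 in Cyp1a1-null marrow 12 h after BP, against 0.32, 0.17 and -0.07 in Cyp1a1-null marrow after oil. In double-null marrow Phlda3 read -0.09 and 0.45 at 12 h after BP, against -0.35 after oil. Ccng1 read -0.06, 0.02 and 0.31 in Cyp1a1-null marrow 12 h after BP, against -0.02, -0.19 and -0.09 after oil.

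**Figure D3:**
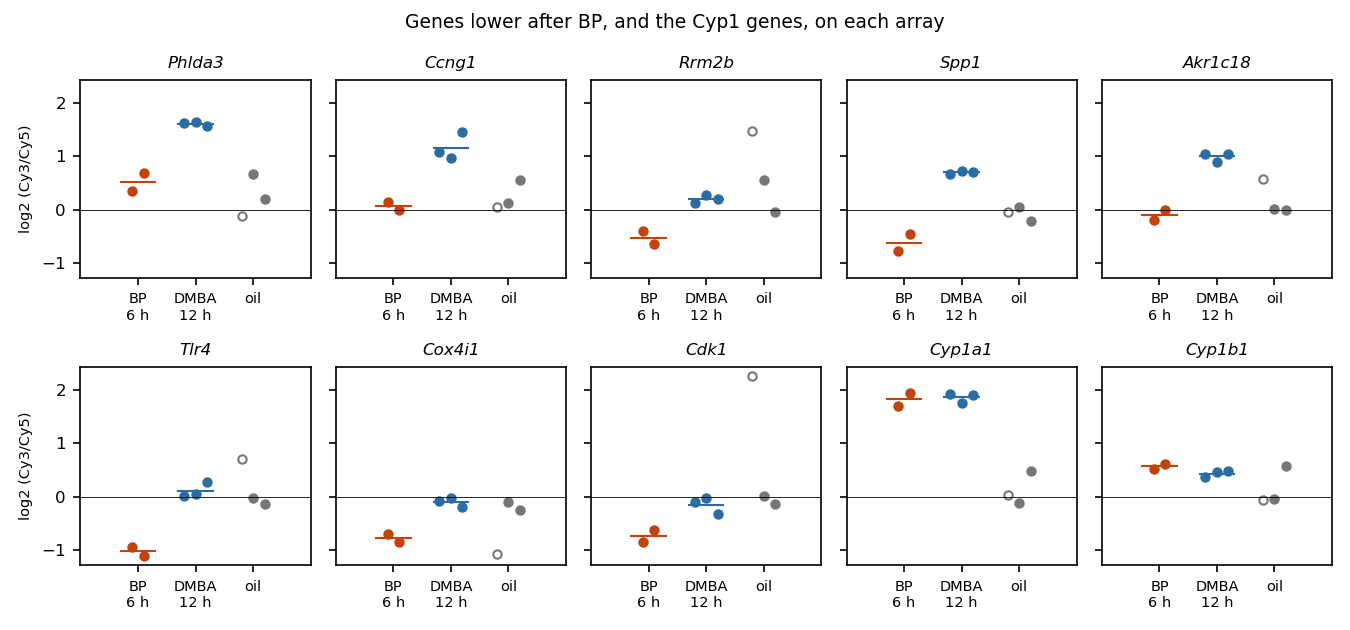
Log2 (Cy3/Cy5) of 8 genes lower after BP and of Cyp1a1 and Cyp1b1 on each array, drawn as for the genes higher after BP (BP orange, DMBA blue, oil grey, WT oil replicate 1 open). For Phlda3, Ccng1, Spp1 and Akr1c18 the DMBA arrays stand above both BP and oil arrays, while for Tlr4, Cox4i1 and Cdk1 the BP arrays stand below the DMBA arrays and WT oil replicates 2 and 3.

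The largest fall among the genes taken by the naming rule was that of Spp1, osteopontin, a secreted matrix protein of bone and macrophages. It read -0.78 and -0.46 after BP, against 0.66, 0.73 and 0.71 after DMBA, and -0.05, 0.04 and -0.22 on WT oil replicates 1, 2 and 3. The difference was -1.32 ± 0.19 (limma adjusted p = 0.00883). BP and DMBA arrays of Spp1 lay on opposite sides of the oil arrays. Spp1 was the only called member of the 18 bone cell genes tested, whose median difference was 0.07. Among other bone genes Alpl, the alkaline phosphatase of osteoblasts, read 0.86 and 0.70 after BP and 0.22, 0.27 and 0.45 after DMBA without passing the test (0.46 ± 0.16, limma adjusted p = 0.179).

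Akr1c18, a reductase that inactivates progesterone, read -0.20 and 0.00 after BP, against 1.05, 0.90 and 1.05 after DMBA, and 0.57, 0.01 and 0.00 on WT oil replicates 1, 2 and 3. Its difference was -1.10 ± 0.13 (limma adjusted p = 0.00544), the smallest adjusted p of any fall among the genes named. The 3 DMBA arrays lay close together and above all oil arrays. Tlr4, the receptor for bacterial lipopolysaccharide, read -0.94 and -1.11 after BP, against 0.02, 0.05 and 0.28 after DMBA (-1.14 ± 0.20, limma adjusted p = 0.0263). Cmtr2, a cap methyltransferase of messenger RNA, was lower by similar amounts (-1.17 ± 0.18, limma adjusted p = 0.0158), as were Zfp84, Sult2a8, Ankrd37, Tasor2 and Dmkn (-1.12 to -1.03). Other probes fell less for some of them. The 3 probes of Zfp84 ran from -1.12 to -0.04, and the 2 probes each of Tasor2 and Cmtr2 from -1.05 to -0.41 and from -1.17 to -0.67. Hapln1, the gene of a link protein of cartilage matrix, turned in sign with Cy3 alone, from -1.07 ± 0.23 as reported.

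Over the 173 genes lower after BP the median group mean was -0.74 after BP and -0.05 after DMBA, with -0.01, 0.04 and -0.16 on WT oil replicates 1, 2 and 3. The BP mean was farther from the reference pool than the DMBA mean in 160 of them. Over the 90 genes higher after BP those medians were 1.23 after BP and 0.23 after DMBA, with 1.20, 0.09 and 0.26 on the oil arrays, and the BP mean was farther from the reference pool in 84. In these sets Phlda3, Ccng1 and Akr1c18 are among the exceptions, with the DMBA mean the farther one. Over all genes tested, the SD of log ratios was 0.37 and 0.35 on the BP arrays and 0.22, 0.21 and 0.33 on the DMBA arrays. How often the BP mean was the farther one over all genes was not counted, so these counts may not be particular to the called genes.

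Of the 36 genes of the mitochondrial respiratory chain tested, 3 were called lower after BP and none higher (0.838% and 0.436% of all genes). The median difference was -0.22, and in 20 both BP arrays lay below all DMBA arrays (22.3% of all genes). None was called with slide as a block, with only the 5 arrays or with Cy3 alone, where the median was -0.04. Cox4i1, a subunit of cytochrome oxidase, read -0.69 and -0.85 after BP and -0.08, -0.02 and -0.20 after DMBA (-0.67 ± 0.12, limma adjusted p = 0.0254). Uqcrc2 of complex III and Ndufa8 of complex I were lower by similar amounts (-0.67 ± 0.13 and -0.83 ± 0.18, limma adjusted p = 0.0374 and 0.0475), and Cycs, cytochrome c, did not pass the test (-0.74 ± 0.18, adjusted p = 0.0719). Cox4i1 turned to 0.19 with Cy3 alone. The list's medians were -0.35 and -0.47 on the BP arrays, -0.11, -0.08 and -0.20 on the DMBA arrays and -1.06, -0.05 and -0.25 on WT oil replicates 1, 2 and 3.

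Few genes of the cell cycle, protein synthesis and stress were called. Of all genes tested, 0.436% were called higher and 0.838% lower. Of 29 genes of G2 and M phase, Cdk1, the kinase that drives mitosis, and Ska2, of the kinetochore, were lower (-0.59 ± 0.12 and -0.69 ± 0.15, limma adjusted p = 0.0404 and 0.0493), and a second probe of Cdk1 gave 0.05. The difference was positive in 12 of the 29, and the median was -0.09. Kif23 was higher by 0.54 and was not called. None of the 31 S phase genes was called, and their median was 0.15. Of 31 splicing and translation factors, Eif1a, of translation start, and Srsf1, a splicing factor, were lower (-0.75 ± 0.14 and -0.47 ± 0.10, adjusted p = 0.0312 and 0.0457). In the integrated stress response, Cebpg was lower (-0.50 ± 0.10, limma adjusted p = 0.0404), and Psph, of serine synthesis, read -1.49 and -1.45 after BP and -0.45, -0.33 and -0.66 after DMBA just short of the threshold (-0.99 ± 0.23, adjusted p = 0.0579). Of the 22 members tested, 10 had a positive difference, and the median was -0.05. Ppp1r15a was higher by 0.96 and was not called. Of the 18 circadian clock genes, which can follow the hour of collection, none was called, and their median was 0.08. Of the glucocorticoid-responsive genes and metallothionein genes only Dusp1 was called, and Mt1, a metal-binding protein gene, read -0.59 and -0.75 after BP and -0.20, 0.13 and 0.03 after DMBA (-0.65 ± 0.16, limma adjusted p = 0.0699).

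**Figure D4:**
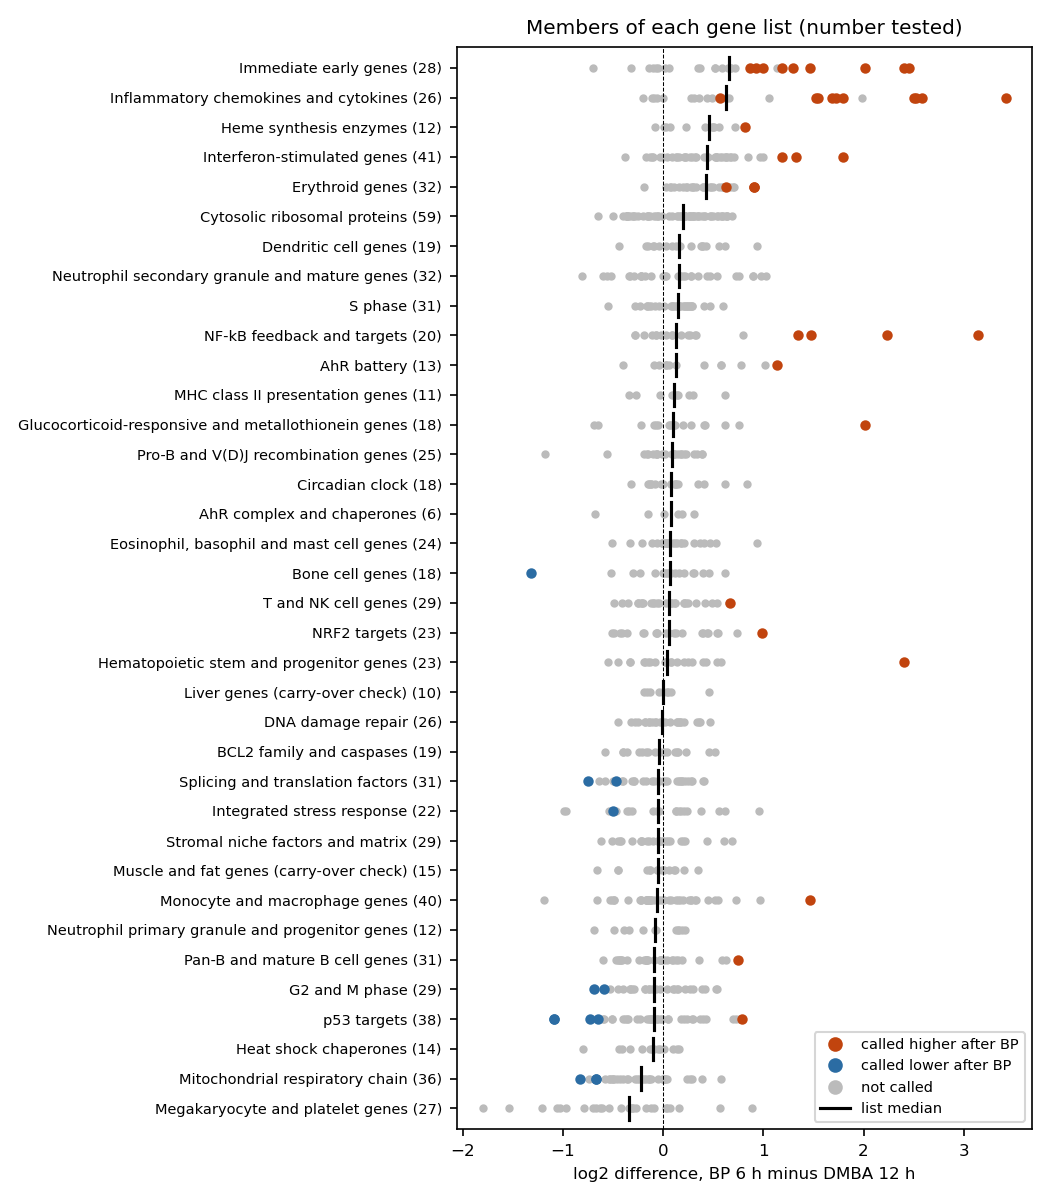
Log2 difference (BP at 6 h minus DMBA at 12 h) of each tested member of 36 gene lists, 1 row per list with the number tested, called members in orange (higher after BP) or blue (lower after BP), and the list median as a black bar. Immediate early genes (0.66) and inflammatory chemokines and cytokines (0.63) have the highest medians and megakaryocyte and platelet genes (-0.34) the lowest.

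Megakaryocyte and platelet genes had the lowest median of the 36 lists, at -0.34, with 0 of 27 members called (limma). In 15 of them both BP arrays lay below all DMBA arrays (22.3% of all genes), and in 1, Itgb1, they lay above. The difference was positive in 6 of the 27, up to 0.89 for Thbs1, the gene of thrombospondin, whose groups overlapped (SE 0.55, limma adjusted p = 0.559). Ppbp, a platelet chemokine gene, read -0.04 and -0.93 after BP, against 1.62, 1.53 and 0.80 after DMBA and 1.80, 1.65 and 1.31 on WT oil replicates 1, 2 and 3. Its difference was -1.80 ± 0.49 (limma adjusted p = 0.0991). Pf4, platelet factor 4, read -0.18 and -1.23 after BP and 0.68, 0.60 and 0.23 after DMBA, and Cavin2, of platelet membranes, -0.78 and -1.35 after BP and 0.62, 0.57 and 0.23 after DMBA. Ppbp, Pf4, Cavin2, Itgb1 and Thbs1 were picked after their values were seen, and BP replicate 2 was the lower array for Ppbp, Pf4 and Cavin2. The list's median was 0.09 and -0.30 on the BP arrays and 0.39, 0.31 and 0.24 on the DMBA arrays.

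The difference was positive in 31 of 32 erythroid genes, with a median of 0.43 (0.22 with Cy3 alone). Of them 3 were called higher (0.436% of all genes), none with slide as a block or only the 5 arrays. Here abundant transcripts reached the ceiling of the scanner. Spots of 55 tested genes were saturated in Cy3 on at least 1 of the 5 arrays, and 54 of the 55 had a positive difference (median 0.58). The alpha globin genes Hba-a1 and Hba-a2 and the beta globin gene Hbb-bt were saturated on every one of the 5 arrays, so no change is given for them. Alas2, of heme synthesis, Fth1, Ubb and Gpx1 also had saturated spots, and Hba-a1, Hba-a2, Alas2, Fth1, Ubb and Gpx1 make up the 6 saturated genes among the 263 called. Hemgn, a nuclear protein of red cell precursors, had none, and read 0.27 and 0.17 after BP, against -0.62, -0.32 and -0.28 after DMBA (0.63 ± 0.14, limma adjusted p = 0.0451). The 3 probes of Hemgn tested gave differences from 0.04 to 0.63, and its call was kept in 5 of 20 alternatives. Without the 4 saturated members the erythroid median was 0.40. In the cytosolic ribosomal protein list 16 of 59 genes were saturated, and the median was 0.49 for these and -0.05 for the rest.

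The other lineage lists had few or no calls. Dendritic cell and mature neutrophil genes had a median of 0.16 each, and neutrophil primary granule genes one of -0.08. Pro-B genes had a median of 0.09 and eosinophil, basophil and mast cell genes one of 0.07. None of these lists held a call. In 9 of 19 dendritic cell genes both BP arrays lay above all DMBA arrays (16.9% of all genes), and in 1 below. Pan-B and mature B cell genes had a median of -0.09 (31 tested), with only Prdm1, the transcription factor of plasma cells, called (0.75 ± 0.16, limma adjusted p = 0.0464). T and NK cell genes had a median of 0.06 (29 tested), with only Il2rb, the beta chain of the interleukin 2 receptor, called, at -0.25 and 0.02 after BP against -0.86, -0.88 and -0.60 after DMBA (0.67 ± 0.14, limma adjusted p = 0.0451). In 8 of the 29 T and NK cell genes both BP arrays lay above all DMBA arrays, and in 11 below (16.9% and 22.3% of all genes). The stem cell and progenitor list contained Egr1, its only called member, and had a median of 0.04. Markers of liver (10 of 21 tested) had a median of 0.00 and those of muscle and fat (15 of 17 tested) of -0.05, and none of either list was called. On WT oil replicate 1 the medians were 3.72 for mature neutrophil genes, 2.75 for B cell genes and -2.44 for liver genes, against -0.30, 0.25 and -0.02 on WT oil replicate 2. Those of the BP arrays were 0.51 and 0.19, 0.03 and 0.36, and 0.06 and 0.02 for the same lists.

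The authors' deposited table gives a log2 difference from oil for BP and another for DMBA. In it, BP minus DMBA had the sign found here in all 263 called genes. The table was made from the same BP and DMBA arrays, so the shared sign is no separate evidence. Over the 20637 genes with a value the differences correlated at r = 0.72. Since both columns of the table share the oil controls, their difference is the value to set beside those here. In the authors' deposited table it was 2.67 for Tnf, 3.57 for Cxcl2, 2.23 for Hic1, -1.24 for Phlda3 and -1.37 for Spp1. For Cyp1a1 the authors' deposited table gave 3.51 for BP and 3.91 for DMBA, a difference of -0.4, against -0.04 here. The oil controls of that table were all the wild-type oil arrays, WT oil replicate 1 among them.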

How the data were processed

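Per the labels, each array compared Cy3-labelled marrow RNA with a Cy5-labelled pool. Per the file headers, the deposited files hold intensity values from Feature Extraction 9.1.3.1 on all 5 arrays, and the software's background method carried code 5 on the BP arrays and 7 on the DMBA arrays. The authors' deposited table of the series holds log2 values of comparisons with oil. The submitters' processing notes name limma.

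Mean signals were corrected with limma 3.58.1 (R 4.3.3, statmod 1.5.0, data.table at version 1.17.8) by normexp (offset 50) and normalized by loess within arrays, without control features. Probes were named through RefSeq (GRCm38.p6) by accession (24844 probes), symbol (6045) or synonym (1810), else by the name in the file (8475). The brightest probe of each gene was used, and genes with Cy3 well above background on at least 2 of the 5 arrays were tested. A mean per group was fitted over the 15 arrays of the 6 treated groups, so that groups share an estimate of the spread, and P values were adjusted by Benjamini and Hochberg. Errors are standard errors of that fit and intervals are 95%. P values measure the spread between arrays, whose number limits the precision.

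Cyp1a1, Cyp1b1, the 12 largest rises and falls among called, non-overlapping genes measured on all 5 arrays, and, for each list holding a call, its 4 members of lowest adjusted p plus any call against the list's direction were named. Il1b, Fos, Cdkn1a, Mdm2, Cd14 and Adgre1 were added after their values were seen. Members and lists were chosen with earlier results of these data known. Whether replicate numbers pair the samples is not known. Deviations from the group means correlated at -0.23 and 0.10 for replicates 1 and 2. These values cannot settle it, since the deviations of the 2 BP arrays are exact opposites. No 2 arrays were alike (at most 0.0254% of Cy3 signals were equal). The fitting was tested on simulated data with independent noise on each array and no slide effect. That test says nothing about error shared by arrays of a slide. Alternatives were other sets of arrays, slide and replicate blocks, background, scaling, filter, probe and prior choices, and leaving out each replicate.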

Additional observations from a re-analysis of the deposited data

How the results depend on the processing

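The direction of all 263 calls was kept under every alternative except Cy3 alone (252 of 263) and the mean of probes (262). Most alternatives could not have turned it. Changing only the arrays of other groups, the filter or the prior leaves the difference of the group means as it is. Leaving out a replicate cannot turn it either, since BP and DMBA arrays did not overlap in any called gene. The counts depended on the setting. They were 90 higher and 173 lower as reported, 31 and 26 with only the 5 arrays compared, 7 and 9 with all 24 arrays, 149 and 266 with 23 arrays (without WT oil replicate 1), and 4 and 0 with slide as a random block (limma, 869 genes at an unadjusted p under 0.05). They were 10 and 6 without background subtraction, 9 and 4 with processed signals, and 10 and 3 with Cy3 alone. None of the falls under processed signals or Cy3 alone was among the 173. The mean of probes gave 71 and 100, and a trended robust prior 37 and 167. Aquantile scaling, no filter and a filter on all 5 arrays stayed within 1.5 times of the counts. Leaving out each replicate gave from 7 to 158 higher and from 2 to 240 lower, with the largest counts without WT DMBA 12 h replicate 3 (158 and 240). After seeing the data, 2 settings were added, which gave 52 and 92 without WT TCDD replicates 1 and 2 and 38 and 47 without the Cyp1b1-null DMBA arrays, whose red channels correlated at 0.904 and 0.824 with the 5 arrays. The replicate block, for numbers not known to pair the samples, gave 49 and 62. The causes were not tested.

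Of 1800 values of named genes under alternatives, 1250 kept direction and call, 526 lost the call, 15 gained one and 9 reversed. With Cy3 alone Hapln1 was 1.96, Txnrd1 0.03, Runx2 -0.10, Cox4i1 0.19, Ska1 0.05 and Eif2s1 0.00, and Cyp1a1 was 0.13 with the replicate block, 0.02 without background subtraction and from -0.16 to 0.08 when each replicate was left out (0.08 without WT BP 6 h replicate 1). Tnf, Ccrl2 and Egr2 kept the call in 19 of 20 alternatives and Nfkbiz in 18, and their highest adjusted p over the alternatives was 0.0915, 0.128, 0.128 and 0.128. Phlda3 kept it in 9, Ccng1 in 11 and Spp1 in 14. Adjusted p with slide as a block was 0.363 for Cxcl2, 0.713 for Cxcl10, Hic1, Spp1 and Ccng1, and 0.987 for Phlda3. Dim and saturated spots limit the depth of measurement, and genes not well above background on 2 of the 5 arrays were not tested.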

Other observations

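Among genes outside the lists, Socs3, an inhibitor of cytokine signalling, read 1.59 and 1.43 after BP and 0.60, 0.53 and 0.49 after DMBA (0.97 ± 0.15, limma adjusted p = 0.0165). Bcl6, a transcriptional repressor of germinal centre B cells, read -0.89 and -1.30 after BP and -0.17, -0.08 and -0.33 after DMBA (-0.90 ± 0.13, limma adjusted p = 0.0124). Creld2, of the endoplasmic reticulum, read -1.42 and -1.28 after BP and -0.34, -0.20 and -0.43 after DMBA (-1.03 ± 0.18, limma adjusted p = 0.0254), and Fkbp11 and Pdia4 fell by 0.89 and 0.83 on the log2 scale (adjusted p = 0.0229 and 0.044). Hspa5, the main chaperone of that compartment, read 0.22 and 0.25 after BP and -0.09, -0.11 and 0.43 after DMBA, and the groups overlapped (0.16 ± 0.18, limma adjusted p = 0.823, interval -0.23 to 0.55). These genes were picked after their values were seen.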
